A study of Mus musculus with 12 samples.

Results

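Interferon-stimulated genes are the transcripts that cells make in quantity when an interferon has bound its receptor. A set of 45 mouse genes of this kind was followed in whole blood and taken by gene symbol. The choice was made with earlier results of these data known. All 45 were among the 55367 genes counted, and 44 of them were among the 13384 genes with enough counts to be tested. The exception was Cxcl10, a chemokine, which had 1, 3, 8 and 9 counts in total over the vehicle, 1 h, 6 h and 24 h libraries. The blood came from CB17-SCID mice, a strain whose inherited defect leaves it without mature T and B cells, that carried grafted HT1376 tumours, grown from a human bladder cancer line. Mice had received CPI0209 by mouth at 35 mg per kg once daily for 11 days, and were bled 1, 6 or 24 h later than the final dose, or had received vehicle for 11 days. Each of the 4 groups had 3 libraries, and every mouse, vehicle mice included, carried the tumour graft. The labels give no bleeding time for the vehicle mice and do not say whether replicates were separate animals or pools, so the p-values measure the spread between these libraries.

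CPI0209 (tulmimetostat) inhibits EZH2 and EZH1, the enzymes that place the repressive methyl marks of Polycomb on histone H3 lysine 27. Type I interferons bind a receptor made of IFNAR1 and IFNAR2, whose kinases JAK1 and TYK2 phosphorylate STAT proteins, STAT2 among them. These join IRF9 to form a complex that binds the interferon-stimulated response element (ISRE) in promoters and switches on genes whose products detect, cut or trap viral RNA, modify proteins with ISG15, or raise the response further through IRF7. USP18 removes ISG15 from proteins and holds the receptor back, which ends the response.

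The core of the ISRE was searched as GAAA, any 2 bases and GAAA again, on both strands in RefSeq windows of 300 bases, running from 250 bases before to 50 bases after each gene start on GRCm38.p6. Windows were found for 34 of the 45 genes. There were none for Ifi204, Oas2, Mx2, Usp18, Parp9, Parp14, Rtp4, Mx1, Ifi27l2a, Dhx58 and Zbp1. The core stood in a window of 20 of the 34 genes (58.8%), against 3.99% of all 27025 genes with a window of that length in the table. Shown here are the 200 bases before the start of the 4 genes that carried the core and differed between groups (Isg15, Ifit1, Oas3 and Rsad2) and of 2 that carried it in duplicate and did not (Ifit3 and Ifit3b), each 5′ to 3′ on the gene's own strand. Capitals mark the core, which reads TTTC, 2 bases and TTTC where it lies on the other strand.
Isg15, chr4:156200819-156201018, minus strand: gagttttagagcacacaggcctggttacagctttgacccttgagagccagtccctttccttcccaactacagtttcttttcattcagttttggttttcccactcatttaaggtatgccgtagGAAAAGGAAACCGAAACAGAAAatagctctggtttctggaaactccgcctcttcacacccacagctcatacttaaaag
Ifit1, chr19:34640689-34640888, plus strand: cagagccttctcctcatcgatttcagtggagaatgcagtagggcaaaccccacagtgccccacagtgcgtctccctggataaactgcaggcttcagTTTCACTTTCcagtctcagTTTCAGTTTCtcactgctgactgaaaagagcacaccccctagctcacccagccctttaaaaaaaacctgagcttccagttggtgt
Oas3, chr5:120777660-120777859, minus strand: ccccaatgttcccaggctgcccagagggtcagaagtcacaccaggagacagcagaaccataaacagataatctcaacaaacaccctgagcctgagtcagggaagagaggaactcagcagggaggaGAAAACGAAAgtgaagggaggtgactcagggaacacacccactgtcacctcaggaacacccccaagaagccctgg
Rsad2, chr12:26456453-26456652, minus strand: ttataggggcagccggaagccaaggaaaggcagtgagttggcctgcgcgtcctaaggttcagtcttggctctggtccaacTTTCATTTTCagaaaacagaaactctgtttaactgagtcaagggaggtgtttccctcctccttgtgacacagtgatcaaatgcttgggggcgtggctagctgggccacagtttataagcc
Ifit3, chr19:34583329-34583528, plus strand: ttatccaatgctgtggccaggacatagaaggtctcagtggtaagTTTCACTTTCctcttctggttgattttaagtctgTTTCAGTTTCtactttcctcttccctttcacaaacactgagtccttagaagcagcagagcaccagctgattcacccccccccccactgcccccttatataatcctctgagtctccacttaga
Ifit3b, chr19:34607757-34607956, plus strand: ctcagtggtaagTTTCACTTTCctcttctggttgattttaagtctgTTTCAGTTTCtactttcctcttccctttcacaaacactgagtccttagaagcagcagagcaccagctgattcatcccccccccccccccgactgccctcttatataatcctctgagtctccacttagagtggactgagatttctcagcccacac

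The 3 cores of Isg15 overlap in 1 run, and those of Ifit1, Ifit3 and Ifit3b are separate copies. All 6 stretches come from RefSeq. A match describes letters only and does not show that a factor bound there.

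Library totals ran from 6496573 to 9978215 counts, and levels are given as CPM, counts scaled to a common library size after TMM, edgeR's correction for composition, with factors of 0.766 to 1.33. Among 35 genes that mark reticulocytes, the youngest red cells, 34 were in the table. Their summed level was 164499, 153089 and 146713 CPM at 6 h, against 83408, 79326 and 89533 CPM in vehicle. Of the 34, 19 were called higher at 6 h (55.9%, against 4.06% of all genes). The 24 h libraries were spread widely, at 43755, 60112 and 128043 CPM for replicates 1, 2 and 3, so 24 h results are given with that spread in view. T cell markers summed to 4.70 to 5.14 CPM at 6 h and 1.51 to 6.13 CPM in vehicle, whereas neutrophil markers summed to 8055 to 12080.3 CPM at 6 h and 6096 to 10753 CPM in vehicle. In whole blood, fewer cells of a type and less RNA per cell cannot be told apart.

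After TMM, the 45 genes together held 12326 to 12923 CPM at 6 h, against 7008 to 8963 CPM in vehicle, and 1 gene carried much of it. Rsad2, which encodes viperin, an enzyme that makes a chain-terminating nucleotide, took 46.6% to 51.8% of the summed level at 6 h and 32.9% to 35.9% in vehicle. Without Rsad2 the sums were 6474, 5943 and 6680 CPM in 6 h libraries, against 4817, 4497 and 5747 CPM in vehicle. The size of these differences depends on TMM, whose factor was below 1 in every 6 h library and above 1 in every vehicle library. Of raw counts, the 45 genes made up 0.989%, 1.00% and 0.976% in 6 h libraries, against 0.802%, 0.764% and 0.920% in vehicle. The sum without Rsad2 was not taken on that scale. Per kilobase of exon, Rsad2 was also the most abundant, at 1436 CPM per kb at 6 h and 622 CPM per kb in vehicle. In vehicle it was followed by Ifitm3, a membrane protein that blocks viral fusion, at 619 CPM per kb. Next came Ifi27l2a, a small mitochondrial protein, at 259 CPM per kb, and Isg15 at 95.4 CPM per kb. Mx2, which GENCODE M21 annotates as a polymorphic pseudogene, was the lowest of the tested genes, at 1.20 CPM per kb in vehicle.

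At 6 h after the last dose, 7 of the 44 tested interferon-stimulated genes were higher than in vehicle and none was lower (15.9%), with an adjusted p under 0.05 as the threshold. Over all 13384 genes 4.84% were called at 6 h, 4.06% higher and 0.785% lower. The 7 were Isg15, Usp18, Ifit1, Oas3, Rsad2, Xaf1 and Sp100, with fold changes from 1.51 for Sp100 to 3.21 for Isg15. No gene of the set was called at 1 h against vehicle, where 0.194% of all genes were called (0.179% higher and 0.0149% lower). None was called at 24 h against vehicle, where 0.105% were called, all higher. The other 37 genes at 6 h had log2 fold changes from -1.05 for Mx2 to 0.65 for Herc6, 19 above and 18 below 0. The median log2 fold change of the 44 was 0.15, beside -0.04 for all genes.

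**Figure D1:**
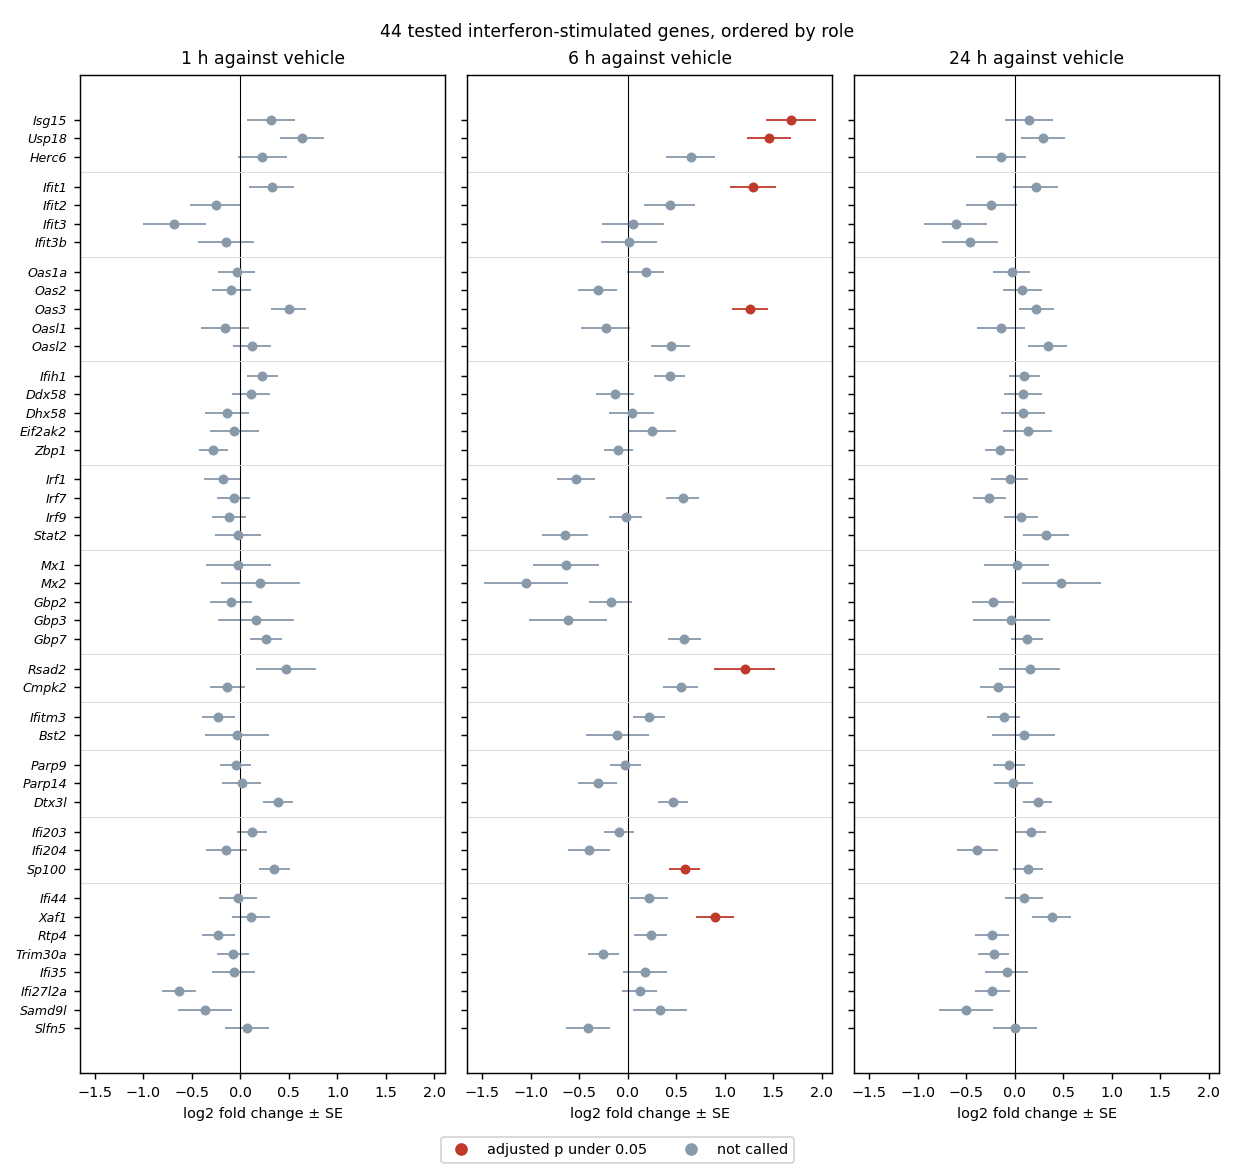
Log2 fold change (x axis, with SE) of the 44 tested interferon-stimulated genes at 1, 6 and 24 h against vehicle, ordered by role; red points have an adjusted p under 0.05. The 7 red points are all in the 6 h panel and right of 0, and the 1 h and 24 h panels have none.

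Isg15, a ubiquitin-like protein that is joined to other proteins and also secreted, showed the largest rise. It had 217, 213 and 265 CPM at 6 h, against 68.7, 66.0 and 81.7 CPM in vehicle. Its log2 fold change was 1.68 (SE 0.26, adjusted p = 0.002, edgeR's quasi-likelihood test with Benjamini-Hochberg adjustment over all genes tested, as for every adjusted p here). The lowest 6 h library stood well above the highest vehicle library. Usp18, the protease that takes ISG15 off again, had 92.0, 70.5 and 93.5 CPM at 6 h, against 29.5, 23.5 and 40.5 CPM in vehicle, with no overlap (log2 fold change 1.45, SE 0.23, adjusted p = 0.0022). Herc6, the main ligase that attaches ISG15 in mice, had 105, 86.4 and 115 CPM at 6 h, against 49.0, 68.4 and 77.6 CPM in vehicle. The groups did not overlap there either, but the difference did not pass (log2 fold change 0.65, adjusted p = 0.17). The modifier and its protease were called and the ligase was not, but the difference between these genes was not tested. Herc6 passed with no filter on low counts (adjusted p = 0.043) and with only the 2 groups fitted (adjusted p = 0.046), and under no other alternative. With 3 libraries against 3, an exact permutation test of 1 gene cannot give a two-sided p under 0.1.

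Of the IFIT family, whose proteins bind viral RNA ends and curb its translation, 1 of 4 genes was called. Ifit1 had 175, 140.5 and 201 CPM at 6 h, against 69.7, 63.1 and 78.0 CPM in vehicle, so the groups were apart by more than the whole vehicle range (log2 fold change 1.29, SE 0.23, adjusted p = 0.0058). Ifit2, which acts with its relatives in a complex, had 116, 79.3 and 103 CPM at 6 h, against 78.0, 78.0 and 64.3 CPM in vehicle, with the nearest libraries of the groups close together (log2 fold change 0.44, adjusted p = 0.39). Ifit3 and Ifit3b, near-identical neighbours, had log2 fold changes of 0.057 and 0.016 with overlapping groups. Of the stretches of 100 bases in Ifit3 transcripts, 31.7% were also in Ifit3b, so counts of these copies are uncertain. For Ifit1 the shared part was 3.29%.

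Of the 5 genes of the OAS family, some of which make the 2-5A messenger that activates RNase L, only Oas3 was called at 6 h. Oas3 had 798, 768 and 843 CPM at 6 h, against 320.0, 269 and 415 CPM in vehicle (log2 fold change 1.26, SE 0.18, adjusted p = 0.0014). Its mean was 803 ± 37.9 CPM at 6 h and 335 ± 74.1 CPM in vehicle (SD, n = 3 each), and no 6 h library came near the vehicle range. Oas2, a neighbour of Oas3 on chromosome 5, went the other way in value, with 180.0 ± 18.6 CPM at 6 h and 223 ± 42.3 CPM in vehicle (log2 fold change -0.31, adjusted p = 0.43), and its groups overlapped. Oas1a (0.19), Oasl1 (-0.23), which in mice holds back IRF7 translation, and Oasl2 (0.44), an OAS-like protein, also did not pass on the log2 scale. Oas1a shared 40.9% of its 100-base stretches with Oas1g and is uncertain for that reason.

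Rsad2 had 6449, 6383 and 5838 CPM at 6 h, against 2357, 2512 and 3216 CPM in vehicle. The groups did not overlap, and the log2 fold change was 1.21 (SE 0.32, adjusted p = 0.044), close to the threshold although the fold was 2.31. Its SE was wider than that of Isg15. The fit shares 1 spread over the 4 groups, and the 24 h libraries of Rsad2 were 1693, 2342 and 4955 CPM. Cmpk2, a mitochondrial nucleotide kinase encoded beside Rsad2, had 77.5, 56.2 and 66.7 CPM at 6 h, against 48.1, 41.2 and 48.0 CPM in vehicle, again with no overlap (log2 fold change 0.55, adjusted p = 0.11).

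Xaf1, a zinc-finger protein that counters the apoptosis inhibitor XIAP, had 89.6, 63.4 and 94.9 CPM at 6 h, against 40.6, 35.1 and 56.9 CPM in vehicle (log2 fold change 0.90, SE 0.20, adjusted p = 0.019). Its nearest libraries were 6 h replicate 2 and vehicle replicate 3, which did not cross. Sp100, a component of PML nuclear bodies, had 384, 383 and 333 CPM at 6 h, against 253, 238 and 240.1 CPM in vehicle (log2 fold change 0.59, SE 0.16, adjusted p = 0.047). The 3 vehicle libraries of Sp100 were within a narrow band, and all 6 h libraries were above it. Ifi203 and Ifi204, nucleic acid binding proteins of the p200 family, had log2 fold changes of -0.090 and -0.40 and did not pass. A share of 10.7% of the 100-base stretches of Ifi204 was also in transcripts of other genes.

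The calls were not equally firm. Leaving out any 1 of the 12 libraries kept Isg15, Usp18, Ifit1 and Oas3 past the threshold in 12 of 12 fits. Xaf1 lost its call without vehicle replicate 1 or 2 or 6 h replicate 1 or 3, where 4 genes in all remained called, and its log2 fold change ran from 0.74 to 1.11. Rsad2 and Sp100 passed only without 24 h replicate 1 or 3, with log2 fold changes from 1.10 to 1.34 and 0.55 to 0.66 over the 12 fits.

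The transcription factors of the response did not rise together. Irf7, the factor that raises interferon production, had 469.6, 522 and 553 CPM at 6 h, against 344, 331 and 368 CPM in vehicle. The groups did not overlap, but the test was not passed (log2 fold change 0.57, SE 0.17, adjusted p = 0.072). Irf9, the DNA-binding partner of STAT2, had 108, 91.7 and 99.4 CPM at 6 h and 89.95, 94.5 and 119 CPM in vehicle, with overlapping groups and a log2 fold change of -0.020 (SE 0.17, adjusted p = 0.96). Stat2 had 30.5, 30.6 and 26.4 CPM at 6 h, against 53.2, 36.5 and 46.8 CPM in vehicle, every 6 h library being below every vehicle library (log2 fold change -0.64, SE 0.24, adjusted p = 0.15). Irf1, which is driven mainly by interferon gamma, was placed likewise, with 31.2, 33.0 and 32.9 CPM at 6 h and 51.6, 39.3 and 50.01 CPM in vehicle (log2 fold change -0.54, adjusted p = 0.14). The exons of Irf7 overlap those of Phrf1 on the other strand, those of Usp18 overlap Gm44148 and those of Irf1 overlap Gm17334. No source used here gives the strand setting of the counting, and without it reads of such partners cannot be told apart.

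**Figure D2:**
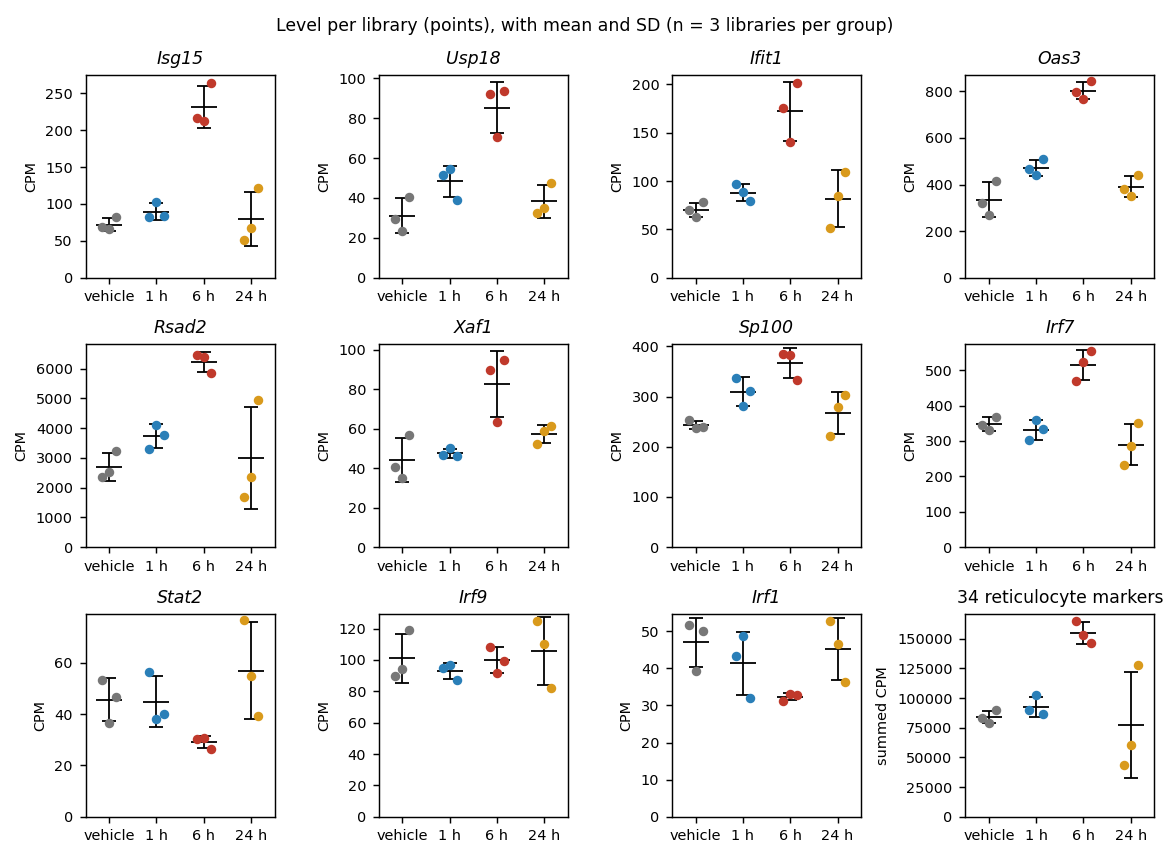
CPM in each library (points) with mean and SD (n = 3 libraries per group) for vehicle and 1, 6 and 24 h after the last dose, for the 8 called genes, Stat2, Irf9 and Irf1, and the summed CPM of 34 reticulocyte markers. Every 6 h point of Isg15, Usp18, Ifit1 and Oas3 is above every other point, whereas the 6 h points of Stat2 are below the others.

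No antiviral GTPase passed. Mx1 and Mx2 had 4.75 ± 0.155 and 2.08 ± 0.436 CPM at 6 h and 7.38 ± 1.13 and 4.33 ± 1.14 CPM in vehicle, with no overlap and log2 fold changes of -0.64 and -1.05. Mx2 rested on few counts, its 6 h libraries having 1.94, 1.73 and 2.57 CPM. The guanylate-binding proteins, which attack the membranes around intracellular microbes, did not share 1 direction. Gbp7 had 197 ± 13.6 CPM at 6 h and 131 ± 11.4 CPM in vehicle, a log2 fold change of 0.59 with the smallest adjusted p of any gene of the set that was not called at 6 h (adjusted p = 0.058), whereas Gbp2 and Gbp3 had -0.17 and -0.61.

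None of the 5 sensors and kinases of foreign nucleic acid passed at 6 h. Ifih1 (MDA5), a sensor of long double-stranded RNA, had 124 ± 7.74 CPM at 6 h and 91.6 ± 16.0 CPM in vehicle without overlap (log2 fold change 0.43, adjusted p = 0.15). Its relatives Ddx58 (RIG-I) and Dhx58 (LGP2), the kinase Eif2ak2 (PKR) and the Z-form nucleic acid sensor Zbp1 had log2 fold changes between -0.13 and 0.25. Of the partners Parp9 and Dtx3l, a mono-ADP-ribosyltransferase and its ubiquitin ligase, Dtx3l had 184 ± 24.1 CPM at 6 h and 133 ± 11.1 CPM in vehicle (log2 fold change 0.47, adjusted p = 0.095), and Parp9 had -0.023. Parp14, a related enzyme, had -0.31. Exons of Parp9 and Dtx3l overlap on opposite strands, so their counts are uncertain too.

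The remaining 9 genes did not pass either. Ifitm3 and Bst2 (tetherin, which holds budding virus at the membrane) had log2 fold changes of 0.22 and -0.11. Ifi44 (0.22), Rtp4 (0.24), Ifi35 (0.18), Ifi27l2a (0.12) and Samd9l (0.33), a growth-restraining protein, were above 0. Trim30a (-0.25), which damps inflammatory signalling in mice, and Slfn5 (-0.41), a Schlafen protein, were below 0. The lowest adjusted p among these 9 was 0.34, for Slfn5.

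Counting by overlap of the 3 libraries, 14 of the 44 genes (31.8%) had every 6 h library above every vehicle library, against 15.8% of all genes. In the other direction there were 5 (11.4%), against 13.5% of all genes: Irf1, Stat2, Mx1, Mx2 and Ifi204. The 7 higher genes not called were Herc6, Ifit2, Ifih1, Irf7, Gbp7, Cmpk2 and Dtx3l.

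At 1 h no interferon-stimulated gene was called by edgeR, limma-voom or DESeq2, and 5 had an unadjusted p under 0.05. Usp18 and Oas3 had the largest positive log2 fold changes, 0.63 (SE 0.22) and 0.50 (SE 0.18), and Ifit3 and Ifi27l2a the largest negative ones, -0.68 and -0.63. Usp18 had 51.3, 54.3 and 39.2 CPM at 1 h, against 29.5, 23.5 and 40.5 CPM in vehicle, and the third 1 h library was inside the vehicle range. Isg15 had 82.0, 103 and 83.5 CPM and Ifit1 96.7, 88.2 and 78.9 CPM at 1 h, each library just above the vehicle libraries given before. Oas3 had 466, 441 and 509 CPM and Rsad2 3314, 4102 and 3779 CPM at 1 h, also clear of vehicle. Sp100 had 338, 281 and 311 CPM, between its 6 h and vehicle levels in mean, whereas Xaf1 had 46.4, 50.3 and 46.2 CPM and Irf7 302, 359 and 334 CPM, inside or across the vehicle range. Without overlap, 7 genes were higher (15.9%, against 8.92% of all genes) and 3 lower (6.82%, against 8.44%).

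Stat2, Irf9 and Irf1 overlapped with vehicle at 1 h. Their 1 h libraries had 56.4, 38.1 and 40.2 CPM for Stat2, 95.2, 97.1 and 87.2 CPM for Irf9 and 43.4, 48.7 and 32.0 CPM for Irf1. The log2 fold changes were -0.022, -0.12 and -0.18, each within 1 SE of 0 (SE 0.24, 0.17 and 0.19).

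At 24 h no interferon-stimulated gene was called against vehicle by edgeR, limma-voom or DESeq2, and none had an unadjusted p under 0.05. Isg15 had 51.6, 66.9 and 121 CPM, Ifit1 51.1, 84.9 and 109.5 CPM and Usp18 32.3, 35.0 and 47.5 CPM at 24 h, in each case with replicate 1 lowest and replicate 3 highest. Oas3 had 382, 349 and 440.2 CPM, Xaf1 52.4, 58.6 and 61.4 CPM, Sp100 221, 279 and 303 CPM and Irf7 234, 285 and 351 CPM at 24 h. Every one of these genes overlapped with vehicle, and their log2 fold changes ran from -0.26 for Irf7 to 0.38 for Xaf1. Stat2, Irf9 and Irf1 had the opposite order in the same libraries, replicate 1 being highest, with 76.6, 54.8 and 39.1 CPM, 125, 109.9 and 82.4 CPM and 52.9, 46.5 and 36.4 CPM. Dtx3l was the 1 gene of 44 without overlap (2.27% higher, against 6.34% of all genes; none lower, against 5.61%).

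Between times, Isg15 was the 1 gene called at 6 h against 1 h (2.27%, against 0.493% of all genes called, 0.134% higher and 0.359% lower). Its log2 fold change was 1.37 (SE 0.25, adjusted p = 0.036), and it passed in 3 of 12 fits that left out 1 library: those without vehicle replicate 3, 24 h replicate 1 or 24 h replicate 3. Over the 12 fits the log2 fold change ran from 1.27 to 1.49. Without 24 h replicate 1 the number of called genes of the set was 9, and without 24 h replicate 3 it was 10. Over all genes, the calls at 6 h against 1 h ran from 4 to 1285 in the 12 fits, beside 66 with every library. Every 6 h library of Ifit1, Usp18, Oas3, Rsad2, Xaf1 and Irf7 was above every 1 h library as well, with log2 fold changes from 0.64 to 0.97 and adjusted p from 0.071 to 0.2. By overlap alone, 16 genes were higher at 6 h (36.4%, against 18.1% of all genes) and 4 lower (9.09%, against 13.8%).

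At 24 h against 6 h, 5 genes were lower and none was higher (11.4%, against 1.76% of all genes called, 0.508% higher and 1.25% lower). Isg15 had a log2 fold change of -1.54 (SE 0.25, adjusted p = 0.02), with 51.6, 66.9 and 121 CPM at 24 h, against 217, 213 and 265 CPM at 6 h. Usp18 had a log2 fold change of -1.16 (SE 0.22, adjusted p = 0.03), Oas3 of -1.04 (SE 0.18, adjusted p = 0.022) and Ifit1 of -1.07 (SE 0.23, adjusted p = 0.039). Irf7 joined them here, with 234, 285 and 351 CPM at 24 h, against 469.6, 522 and 553 CPM at 6 h (log2 fold change -0.83, SE 0.17, adjusted p = 0.034). Each of these 5 had all 24 h libraries below all 6 h libraries. Rsad2 did so too, but did not pass the test (log2 fold change -1.05, SE 0.32, adjusted p = 0.084). By overlap, 16 genes were lower (36.4%, against 12% of all genes) and 4 higher (9.09%, against 10.5%).

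The 24 h calls leaned on single libraries. Fits without 24 h replicate 3 called 16 genes of the set, and fits without 24 h replicate 1, 24 h replicate 2 or any 1 of the 6 h libraries called none at 24 h against 6 h. Of the 16, Irf1, Mx2, Slfn5 and Stat2 were higher at 24 h and the others lower. Over all genes, the calls ran from 0 to 2243 in the 12 fits, beside 235 with every library. Isg15 passed in 7 of the 12 fits that left out 1 library (log2 fold change from -1.97 to -1.28), failing without 24 h replicate 1 or 2 or any 6 h library. Usp18 and Oas3 passed in 5 fits (from -1.35 to -1.03 and -1.14 to -0.94), those without any 1 vehicle library, 1 h replicate 2 or 24 h replicate 3. Ifit1 and Irf7 passed only without 24 h replicate 3 (from -1.34 to -0.80 and -0.99 to -0.67). Without 1 h replicate 1 or 3, only Isg15 was called. With only the 2 groups in the fit, no gene of the set was called at 24 h against 6 h, and no gene at all.

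Stat2 was the mirror of these genes at 24 h against 6 h. It had 76.6, 54.8 and 39.1 CPM at 24 h, against 30.5, 30.6 and 26.4 CPM at 6 h, without overlap (log2 fold change 0.97, SE 0.24, adjusted p = 0.053). Leaving out 1 library, Stat2 was called higher in 1 of 12 fits, that without 24 h replicate 3. Under 9 other settings, 6 fits called it higher, with adjusted p from 0.00066 with no filter on low counts to 0.044 with limma-voom. The exceptions were the fits with DESeq2 size factors (adjusted p = 0.054), with only the 2 groups (adjusted p = 0.22) and with the reticulocyte marker level as a covariate (adjusted p = 0.93). Mx2 had 6.00 ± 1.96 CPM at 24 h and 2.08 ± 0.436 CPM at 6 h (log2 fold change 1.53, adjusted p = 0.073). At 24 h against 1 h no gene of the set was called, beside 0.0224% of all genes, and 1 had an unadjusted p under 0.05; without 24 h replicate 3, Rsad2 was called lower. By overlap, Dhx58 and Xaf1 were higher and Oas3 was lower there (4.55% and 2.27%, against 5.64% and 4.74% of all genes).

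The called genes were above vehicle at 6 h, as the reticulocyte markers were. At 24 h, 7 of the 8 genes called in any comparison were lowest in replicate 1 and highest in replicate 3, the order of the summed reticulocyte markers. The summed platelet markers had that order too, with 2135, 2738 and 3755 CPM at 24 h, and so had the mean log2 CPM of the neutrophil markers (7.62, 7.79 and 8.03) but not their summed CPM. Over all 44 genes, 14 had that order and 13 the opposite one. The share of all tested genes with that order was not counted, so the 7 of 8 cannot be set beside a background. The exception among the called genes was Oas3, which was lowest in replicate 2. With the mean log2 level of the reticulocyte markers as a covariate, a fit chosen after seeing the data, none of the 44 genes was called in any of the 6 comparisons. Over all 13384 genes that fit called only 34 at 6 h against vehicle, beside 648 without the covariate. The log2 fold changes at 6 h against vehicle were then 1.01 for Oas3, 0.85 for Usp18, 0.62 for Isg15, 0.61 for Xaf1, 0.44 for Ifit1 and 0.27 for Sp100. That of Rsad2 was -0.13, on the other side of 0. The reticulocyte markers and the treatment times move together in this design, and the part of the reticulocytes in these results was not tested beyond this fit.

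**Figure D3:**
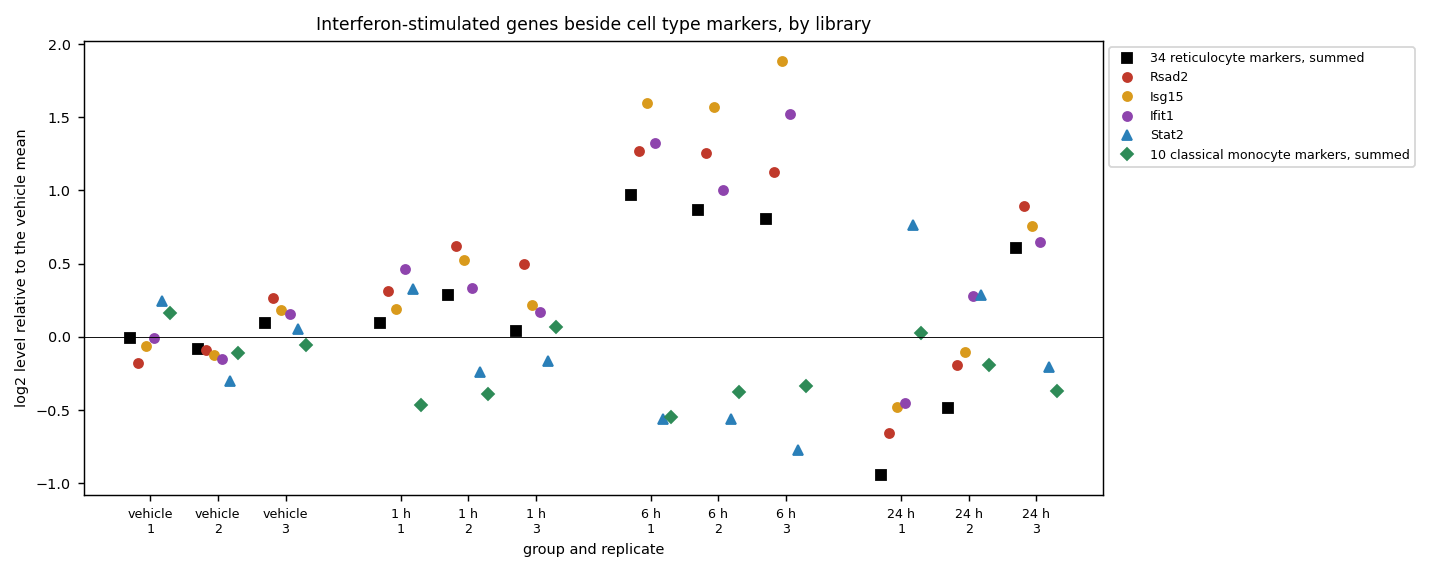
Log2 level of Isg15, Ifit1, Rsad2 and Stat2, and of the summed reticulocyte and classical monocyte markers, in each of the 12 libraries relative to the vehicle mean. At 6 h the reticulocyte sum and the first 3 genes are above 0 in all libraries and Stat2 is below, and at 24 h replicates 1 and 3 are at opposite ends for all 4 genes and the reticulocyte sum.

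White cell and platelet markers were also followed, since monocytes and plasmacytoid dendritic cells respond to or make interferon. Classical monocyte markers summed to 2451 to 2834 CPM at 6 h and 3321 to 4014 CPM in vehicle without overlap, and 1 of the 10, the chemokine receptor Ccr2, was called lower (log2 fold change -0.63, adjusted p = 0.048). Plasmacytoid dendritic cell markers summed to 181 to 224 CPM at 6 h and 189 to 222 CPM in vehicle, with none of 7 tested called. NK cell markers summed to 543 to 616 CPM at 6 h and 382 to 555 CPM in vehicle. Platelet markers summed to 2748 to 3768 CPM at 6 h and 2060.3 to 2939 CPM in vehicle, with overlap. By edgeR none of the 10 was called at 6 h and 4 had an unadjusted p under 0.05. Every 6 h library was above every vehicle library for 6 of the 10, against 15.8% of all genes. The median log2 fold change of the 10 was 0.55 against vehicle and 0.68 against 1 h. Neutrophil markers summed to 8055 to 12080.3 CPM at 6 h and 6096 to 10753 CPM in vehicle, and 1 of 14, the collagenase Mmp8, was called higher (log2 fold change 1.38, adjusted p = 0.046). Over all genes, 4.06% were called higher and 0.785% lower at 6 h against vehicle. The part of these cells in the interferon-stimulated genes was not tested.

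The genes upstream were taken from lists of the pathway. Of 21 interferon ligand genes, only Ifng had enough counts for a test, with 0.896, 1.98 and 1.80 CPM at 6 h and 0.581, 2.69 and 0.254 CPM in vehicle (log2 fold change 0.39, adjusted p = 0.81). In each library 18 to 20 of the 21 were at 0 counts, so a change in the type I interferon transcripts was not detectable at this depth. Of the 6 receptor chains, Ifnar2 was called higher at 6 h, with 174, 169.6 and 213 CPM at 6 h, against 85.0, 95.6 and 79.1 CPM in vehicle (log2 fold change 1.10, SE 0.21, adjusted p = 0.0083). Its partner chain Ifnar1 had 80.3, 94.9 and 96.9 CPM at 6 h and 105, 99.5 and 95.1 CPM in vehicle, with a log2 fold change of -0.14 that did not pass. The 24 h libraries of Ifnar2 had 71.0, 96.7 and 139 CPM for replicates 1, 2 and 3.

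None of 9 JAK and STAT genes was called at 6 h, and their median log2 fold change was -0.24. The smallest p belonged to Jak1 (0.35) and Tyk2 (-0.58), the kinases of the receptor, each with adjusted p = 0.18. None of 14 inhibitors of the pathway was called at 6 h, Irf2bp2 (-0.57, adjusted p = 0.087) and Irf2 (-0.56, adjusted p = 0.11) having the smallest p. At 1 h, however, Irf2bp2, a corepressor that partners IRF2, was called higher, with 107, 109 and 136 CPM at 1 h, against 55.4, 54.5 and 65.9 CPM in vehicle (log2 fold change 1.00, adjusted p = 0.039). It was called lower at 6 h against 1 h (-1.58, adjusted p = 0.0032) and at 24 h against 1 h (-1.21, adjusted p = 0.041).

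Of 23 sensors and adaptors that lead to interferon production, 1 was called higher and 1 lower at 6 h (8.7%, against 4.84% of all genes). Mavs, the mitochondrial adaptor of RIG-I and MDA5, had 53.2, 26.1 and 43.3 CPM at 6 h, against 12.2, 12.7 and 12.3 CPM in vehicle (log2 fold change 1.72, adjusted p = 0.0012). Irak4, a kinase of Toll-like receptor signalling, had 21.8, 22.2 and 21.7 CPM at 6 h, against 37.3, 41.4 and 39.7 CPM in vehicle (log2 fold change -0.85, adjusted p = 0.034). Neither gene's groups overlapped, and the list median was -0.28. Unc93b1, which carries Toll-like receptors to endosomes, was called higher at 24 h against 6 h (0.80, adjusted p = 0.041).

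Of 26 genes known mainly for the response to interferon gamma, 21 were tested. At 6 h 2 were higher (9.52%, against 4.84% of all genes called), both immunity-related GTPases. Igtp had 356, 303 and 365 CPM at 6 h, against 151, 181 and 160.2 CPM in vehicle (log2 fold change 1.06, adjusted p = 0.016). Tgtp2 had 354, 271 and 393 CPM at 6 h, against 131, 154 and 147 CPM in vehicle (log2 fold change 1.23, adjusted p = 0.047). Both sets of libraries were apart, and the median of the 21 was -0.18.

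A further list of 65 interferon-stimulated genes outside the 45 had 62 tested, with 6 higher and 1 lower at 6 h (11.3%, against 4.84% of all genes). The median log2 fold change of the 62 was -0.012. Ifi27, a mitochondrial protein related to Ifi27l2a, had 61.5, 55.2 and 81.4 CPM at 6 h, against 13.2, 15.9 and 16.2 CPM in vehicle (log2 fold change 2.13, adjusted p = 0.00012). Isg20, an exonuclease of single-stranded RNA, had 2026, 2016 and 2063 CPM at 6 h, against 609, 688 and 808 CPM in vehicle (log2 fold change 1.54, adjusted p = 0.011). Tdrd7 (1.24), a tudor-domain protein, and Lgals9 (0.94), galectin-9, were higher with adjusted p of 0.002 and 0.0031. The rise of Ifi27 was larger than that of Ifi27l2a, but the difference between the 2 genes was not tested. Parp12 (0.70) and Usp25 (1.00) were the other higher genes, and Trim34a (-1.11, adjusted p = 0.038) the lower one, these 3 being named after their values were seen. At 24 h, Isg20 had 553, 790.3 and 1601 CPM and Usp25 318, 470.4 and 847 CPM for replicates 1, 2 and 3. How many called genes of the pathway lists had this order at 24 h was not counted. Between times, Ifi27 was called higher at 6 h against 1 h (1.24, adjusted p = 0.026), and Ifi27 (-1.73) and Lgals9 (-0.66) were called lower at 24 h against 6 h. Ifi207, of the p200 family, was called lower at 6 h against 1 h (-1.21).

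**Figure D4:**
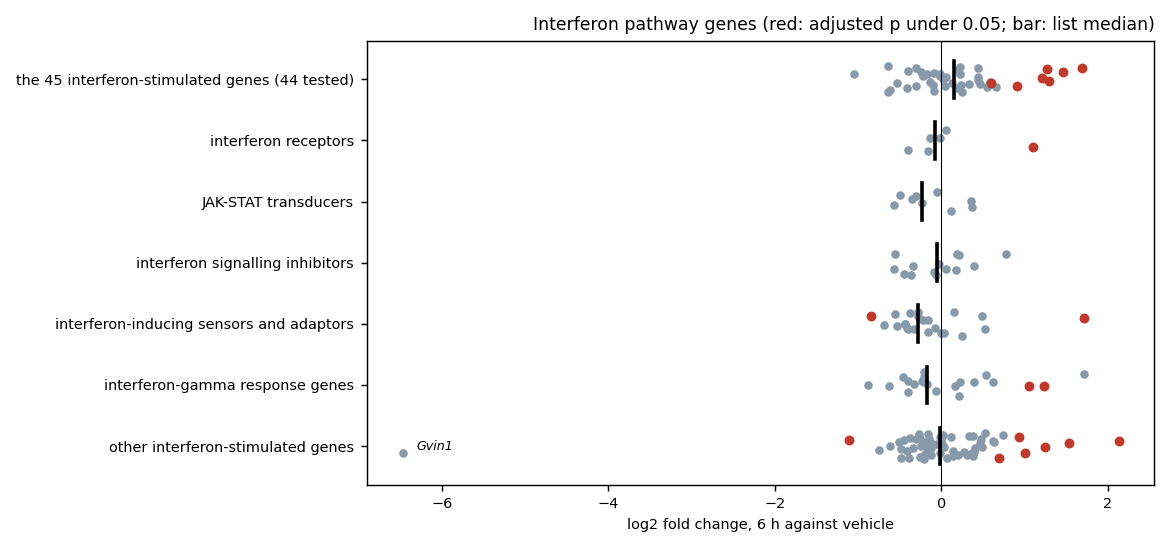
Log2 fold change at 6 h against vehicle (x axis) of each tested gene in the set of 45 and in 6 pathway lists; red points have an adjusted p under 0.05 and the bar is the list median. The set has 7 red points with a median of 0.15, and the medians of the other lists are below 0; the point near the left edge, Gvin1, was not called and had no counts at 6 h.

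The ISRE core did not separate called from other genes. It was in the windows of 4 of the 7 called genes that had a window (Isg15, Ifit1, Oas3 and Rsad2, whose sequences stand above) and of 16 of the 27 others. Irf7, Sp100 and Xaf1 had no match to these letters, and 8 of the 34 genes had at least 2 matches. Ifit3 and Ifit3b carried separate copies of the core as Ifit1 did, with log2 fold changes at 6 h of 0.057 and 0.016, against 1.29 for Ifit1.

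The 8 called genes are protein-coding and lie on 8 different chromosomes of GRCm38, as annotated by GENCODE M21. Isg15 (ENSMUSG00000035692) is at chr4:156199424-156200818, Usp18 (ENSMUSG00000030107) at chr6:121245906-121270917 and Ifit1 (ENSMUSG00000034459) at chr19:34640871-34650009. Oas3 (ENSMUSG00000032661) is at chr5:120753098-120777661, Rsad2 (ENSMUSG00000020641) at chr12:26442746-26456452 and Xaf1 (ENSMUSG00000040483) at chr11:72301629-72313733. Sp100 (ENSMUSG00000026222) is at chr1:85649988-85709998 and Irf7 (ENSMUSG00000025498) at chr7:141262706-141266481.

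The scaling of the libraries moved the balance of higher and lower calls. With library totals alone, the median of all genes at 6 h against vehicle moved by -0.46 on the log2 scale. In that scaling Isg15, Usp18, Ifit1, Oas3 and Rsad2 were higher, with log2 fold changes from 0.76 to 1.23, and Stat2, Irf1, Mx1, Ifi204 and Trim30a were lower, so the split was 5 higher and 5 lower beside 7 and 0 under TMM. Over all 13384 genes, that scaling called 344 higher and 1488 lower at 6 h against vehicle. At 24 h against 6 h the median of all genes moved by 0.52, and the split was 10 higher and 5 lower beside 0 and 5. In that comparison 2951 of all genes were called with library totals alone. Isg15, Usp18, Ifit1 and Oas3 kept their direction and their calls in both comparisons under that scaling.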

How the data were processed

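Whole-blood RNA of 12 libraries was measured. Per the labels' protocols, the blood RNA was isolated by PAXgene kit, depleted of ribosomal RNA and sequenced from both ends by HiSeq. The authors deposited whole-number counts per mouse Ensembl gene, not scaled to library size. RSEM is named without a version, per the submitters' processing notes, so the counts may be rounded estimates, and those notes list a human build (hg38) although the identifiers are mouse. No source used here names the aligner, annotation release or strand.

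Counts were tested with edgeR 4.0.16 in R 4.3.3: filterByExpr by group, TMM, a quasi-likelihood fit of 4 group means to all 12 libraries, 6 contrasts, and Benjamini-Hochberg adjustment over 13384 genes at a threshold of 0.05. Fold changes are log2, tested over vehicle or later over earlier. Alternatives were DESeq2 1.42.0 (its test, and its size factors in edgeR), limma 3.58.1 (voom), library totals alone, other filters, fits to the 2 groups of a comparison, a block for replicate number, and fits without each library. The fit was tested on simulated libraries with 13051 genes, of which 196 were changed at 6 h. It found 23.2% of log2 changes of 1 and 74.2% of those of 2, with 8 false calls among unchanged genes. The simulation held no wider spread at 24 h and no joint shift of reticulocyte markers, so these rates may differ in the real libraries. No 2 libraries agreed within sampling noise. Of 18 pairs of libraries with the same replicate number, 2 had deviations correlated above 0.1, so the numbers were not taken as pairs.

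The 45 genes and all lists were chosen with earlier results of these data known. Every gene of the 45 is accounted for, values in all libraries are given for those called in any comparison and for Irf9, Stat2 and Irf1, and up to 4 called genes per comparison, or the 2 with the smallest p, are named from each pathway list, with any further gene said to be named after its values were seen. Positions, exon lengths and 100-base stretches are from GENCODE M21. The stretches were compared for the 45 genes only, not for the genes of the other lists. Nothing was left out of the 12 libraries.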

Additional observations from a re-analysis of the deposited data

Results flagged for a closer look

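Isg15 differed between the collection times themselves: its log2 fold change at 6 h against 1 h was 1.37 (adjusted p = 0.036, edgeR's quasi-likelihood test with Benjamini-Hochberg adjustment). All 3 libraries at 6 h were above all at 1 h, as for 18.1% of all genes. The log2 fold changes at 24 h against 6 h were -1.54 for Isg15, -1.16 for Usp18, -1.07 for Ifit1, -1.04 for Oas3 and -0.83 for Irf7. Their adjusted p ran from 0.02 for Isg15 to 0.039 for Ifit1. For each gene 3 of 3 libraries at 24 h were below all at 6 h, as for 12% of all genes. The groups compared were given the same drug and dose and differ by label in the time of bleeding. All 34 reticulocyte markers were also lower in value at 24 h than at 6 h. With the reticulocyte covariate none of these calls remained. Leaving out 1 library, Isg15 at 6 h against 1 h passed in 3 of 12 fits. At 24 h against 6 h, Isg15 passed in 7 of 12, Usp18 and Oas3 in 5, and Ifit1 and Irf7 in 1.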

How the results depend on the processing

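Of the interferon-stimulated genes, 0 were called at 1 h and 24 h against vehicle under every alternative run. Called numbers moved elsewhere as follows. At 6 h against vehicle (7 called) there were 12 with only the 2 groups fitted, Stat2 being lower and the others higher. With the reticulocyte covariate (chosen after seeing the data) there were 0, and leaving out 1 library gave 4 to 9. At 6 h against 1 h (1 called) there were 9 with no filter, 8 with the DESeq2 test and 14 with only the 2 groups. Of those 14, Slfn5 and Stat2 were lower and the others higher. There were 0 with the covariate and 0 to 10 leaving out 1 library. At 24 h against 6 h (5 called) there were 15 with library totals alone, 12 with no filter and 12 with the DESeq2 test (2 higher and 10 lower in each), 8 with limma-voom (1 higher and 7 lower), 0 with only the 2 groups, 0 with the covariate and 0 to 16 leaving out 1 library. At 24 h against 1 h (0 called) leaving out 1 library gave 0 to 1. Over all genes, library totals alone gave 65 at 1 h (26 called), 1832 at 6 h (648) and 26 at 24 h (14) against vehicle, 674 at 6 h against 1 h (66) and 2951 at 24 h against 6 h (235). With no filter the 6 comparisons in that order, ending with 24 h against 1 h (3), gave 288, 1265, 237, 1227, 1477 and 107, and the DESeq2 test gave 162, 1160, 91, 848, 1218 and 31. Limma-voom gave 17, 7, 729 and 5 at 1 h and 24 h against vehicle, 24 h against 6 h and 24 h against 1 h. Only the 2 groups gave 204, 1382, 1, 1720 and 0 in the first 5 comparisons, and the covariate gave 323, 34, 168, 1 and 1. The filter of 5 CPM gave 445 at 24 h against 6 h. Leaving out 1 library gave 7 to 165, 239 to 1266, 3 to 112, 4 to 1285, 0 to 2243 and 0 to 205 in the 6 comparisons. With the replicate block 418 genes were called at 24 h against 6 h and 1 at 24 h against 1 h, and 6, 1 and 6 of the interferon-stimulated genes at 6 h against vehicle, 6 h against 1 h and 24 h against 6 h. Directions turned for Rsad2 with the covariate (-0.13 at 6 h against vehicle and 0.085 at 24 h against 6 h), for Stat2 with it (0.12 at 6 h against vehicle), and for Irf9 with it (0.37), without vehicle replicate 3 (0.099) and without 6 h replicate 2 (0.039), with a range from -0.12 to 0.099 leaving out 1 library. The causes were not tested. Depth limits the ligand transcripts, Cxcl10 and Mx2, and counting errors do not cover differences between mice.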

Other observations

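Gvin1, a large interferon-inducible GTPase, was detected in single libraries rather than groups, with 6.26, 0 and 0.538 CPM at 1 h, 0, 0 and 3.44 CPM at 24 h and 1.28, 2.69 and 0 CPM in vehicle, and it had no counts at 6 h. Its fitted fold changes depend on the prior count and are not given. Samd9l had 132, 291 and 319 CPM at 24 h and 293, 336 and 422 CPM in vehicle, its lowest library of all 12 being 24 h replicate 1. Slfn5, with 469, 335 and 241 CPM at 24 h and 362, 274 and 407 CPM in vehicle, was highest of all 12 in that same library.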
